A study of Mus musculus with 6 samples.

Results

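Thioredoxin and its NADPH supply were described through 10 genes known as targets of the transcription factor NRF2: Txn1, Txnrd1, Srxn1, Nqo1, Slc7a11, G6pdx, Pgd, Taldo1, Tkt and Me1. They were chosen by name, as the rows of the deposited tables whose Ensembl identifier carries one of these symbols in the GRCm38 annotation, and all 10 were found among 55335 identifiers. The libraries came from bEnd.3, a wild-type mouse brain endothelial line immortalised with a polyomavirus oncogene. In the mitochondria group (3 libraries), mitochondria isolated from primary mouse astrocytes were added in 100 µl of medium, and in the control group (3 libraries) the cells received that volume of medium with nothing added. Both groups were collected after 24 h and sequenced as strand-specific mRNA libraries. The only comparison is mitochondria against control, in a series about the effect of astrocytes on the blood-brain barrier by way of mitochondria they hand over. Whether the 3 libraries in each group are separate cultures is not stated in the labels, and the p-values then reflect only how these libraries vary, which may be technical.

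NRF2, encoded by Nfe2l2, is held in the cytoplasm by KEAP1 and degraded until oxidants or electrophiles modify KEAP1; it then pairs with a small MAF protein on antioxidant response elements in promoters and enhancers. Many of its targets keep thiols reduced. Electrons pass from NADPH through thioredoxin reductase to thioredoxin, which reduces peroxiredoxins and other proteins, and the NADPH comes largely from the pentose phosphate pathway and from malic enzyme. In endothelium this system is known for its part in the response to flow and to oxidative stress.

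Levels are in FPKM, a count of fragments divided by transcript length and by the total of the library. The depth implied by the values was 17100000 to 21200000 fragments in the controls and 21900000 to 27200000 with mitochondria, without overlap, so depth and treatment cannot be told apart. Of the endothelial markers, 8 of 15 were under 1 FPKM in every library, among them Cdh5 and Cldn5, so the labelled cell type was only partly borne out by its markers. Of 12 astrocyte markers 4 were at 0 in every library, Gfap and Slc1a2 did not exceed 0.198 FPKM, and Aldh1l1, which reached 1 FPKM in too few libraries to be tested, was at 0.302 to 0.455 FPKM in controls and at 0.972 to 1.15 FPKM with mitochondria. The summed level of these 12 genes was 26.8 to 63.7 FPKM in controls and 42.4 to 48.5 FPKM with mitochondria, most of it from Gja1 and Aldoc. Some cell type markers differed between the groups: Col1a1, a fibroblast collagen, fell from 137.9 ± 2.45 to 83.9 ± 3.19 FPKM (limma adjusted p = 0.00547), and the endothelial marker Cd34 rose from 60.3 ± 2.495 to 80.1 ± 1.84 FPKM (limma adjusted p = 0.0265). Groups did not overlap in 21% of all genes tested (9.62% higher and 11.4% lower with mitochondria). Of 5 tested fibroblast and mural markers, Pdgfra, Acta2 and Des were higher without overlap and Col1a1 lower. The other 5 of the 10 listed, among them Col1a2, Dcn and Lum, were under 1 FPKM in every library. The summed level of the 10 was 216 to 237 FPKM in controls and 163 to 171 FPKM with mitochondria. Most of the fall of that sum came from Col1a1. Of 7 tested endothelial markers, 5 had a positive and 2 a negative log2 change. Groups did not overlap in 3 of them: Cd34 was higher, and Kdr and Flt1 were lower. The summed level of the 15 endothelial markers was 140.5 to 147.9 FPKM in controls and 162.4 to 174.9 FPKM with mitochondria. Tmem119 was at 240.9 ± 26.6 and 190.9 ± 14.1 FPKM, also without overlap, and the other 7 microglia and leukocyte markers stayed under 1 FPKM. The part of these marker differences in the results was not tested. In bulk RNA, fewer cells of a type and less RNA per cell cannot be told apart.

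No member passed the test of the whole table, and the differences between the groups were small. Tkt was 1.22-fold higher with mitochondria, Me1 was at 0.78 of its control level, Txnrd1 at 0.88 and Srxn1 at 0.66, and in these 4 genes the 3 mitochondria libraries did not overlap the 3 controls. G6pdx and Pgd, which encode the dehydrogenases of the pentose phosphate pathway, had nearly the same means in both groups. Of the 10 members, 9 were expressed highly enough to be tested (1 FPKM or more in at least 3 libraries), and Slc7a11 was not. The test was limma on log2(FPKM + 1) with Benjamini-Hochberg adjustment over 12639 genes. It called 0 of the 9 members at an adjusted p under 0.05, where 1.12% of all genes tested were called (0.467% higher and 0.649% lower), and 3 of the 9 had an unadjusted p under 0.05 in limma, where 13.9% of all genes did. Groups did not overlap in 4 of 9 members, 3 lower and 1 higher with mitochondria, against 21% of all genes tested (11.4% lower and 9.62% higher). The median log2 change of the 9 members was −0.07, and that of all genes tested was −0.01.

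The promoters of the 4 genes whose groups did not overlap are printed to show where they match the core of the element through which NRF2 acts. Each is the 300-base window from 250 bases before to 50 bases after a RefSeq transcription start on GRCm38.p6, 5′ to 3′ in the direction of transcription. Capitals mark matches to TGACNNNGC, the core of the antioxidant response element, or to TGAGTCA, the site of AP-1 factors, on either strand. The windows are chr9:86695865-86696164 (minus strand) for the first of 2 Me1 starts, chr2:152105274-152105573 (plus strand) for Srxn1, chr10:82858956-82859255 (plus strand) for the second of 3 Txnrd1 starts, and chr14:30548881-30549180 (plus strand) for Tkt.
Me1: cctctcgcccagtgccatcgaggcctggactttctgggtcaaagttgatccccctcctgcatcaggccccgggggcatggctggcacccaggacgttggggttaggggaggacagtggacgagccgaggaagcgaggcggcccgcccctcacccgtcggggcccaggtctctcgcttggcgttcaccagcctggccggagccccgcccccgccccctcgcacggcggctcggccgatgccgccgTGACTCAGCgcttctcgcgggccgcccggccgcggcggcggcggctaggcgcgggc
Srxn1: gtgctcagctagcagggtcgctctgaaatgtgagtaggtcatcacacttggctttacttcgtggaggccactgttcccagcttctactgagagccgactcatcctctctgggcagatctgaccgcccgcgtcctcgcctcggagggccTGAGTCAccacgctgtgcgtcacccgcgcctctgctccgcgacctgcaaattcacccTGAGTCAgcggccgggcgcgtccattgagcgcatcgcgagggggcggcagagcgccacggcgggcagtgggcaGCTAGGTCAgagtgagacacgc
Txnrd1: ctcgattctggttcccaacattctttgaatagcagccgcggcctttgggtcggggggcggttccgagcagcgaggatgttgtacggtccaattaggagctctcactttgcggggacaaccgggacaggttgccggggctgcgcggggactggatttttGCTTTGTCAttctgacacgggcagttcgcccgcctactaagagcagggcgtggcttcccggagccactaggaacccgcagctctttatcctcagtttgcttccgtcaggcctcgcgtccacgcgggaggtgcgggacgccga
Tkt: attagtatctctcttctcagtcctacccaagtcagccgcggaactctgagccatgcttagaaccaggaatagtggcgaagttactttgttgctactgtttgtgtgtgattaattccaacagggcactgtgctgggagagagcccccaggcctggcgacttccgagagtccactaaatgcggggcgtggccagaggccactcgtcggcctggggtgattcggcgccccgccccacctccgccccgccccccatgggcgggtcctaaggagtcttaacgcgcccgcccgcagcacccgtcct

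In Me1 the core match is TGACTCAGC at position −6 from the start, and its first letters, TGACTCA, are also the AP-1 match. Srxn1 has AP-1 matches at −102 and −45 and a core match at 29, within the transcribed part, while the Txnrd1 window has a core match at −92. The Tkt window holds neither, nor do the second Me1 window and the other 2 Txnrd1 windows, which are not printed. All 10 members had windows in the RefSeq table, 14 in all, and the core was found for 5 members (Txnrd1, Srxn1, G6pdx, Pgd and Me1) in 5 of the 14 windows. Of all 32851 windows of this length, 12.4% held the core and 5.2% held TGAGTCA, which was found in 2 members, Srxn1 and Me1. A match is a description of letters and not of binding, and which start was used in these cells was not measured. Elements outside these windows or with other letters were not searched for. A window without a match therefore does not show that the gene lacks the element. GC content of the members' windows ran from 44.7% (Slc7a11) to 74.7% (Me1), and the median of all windows was 52.7%.

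**Figure D1:**
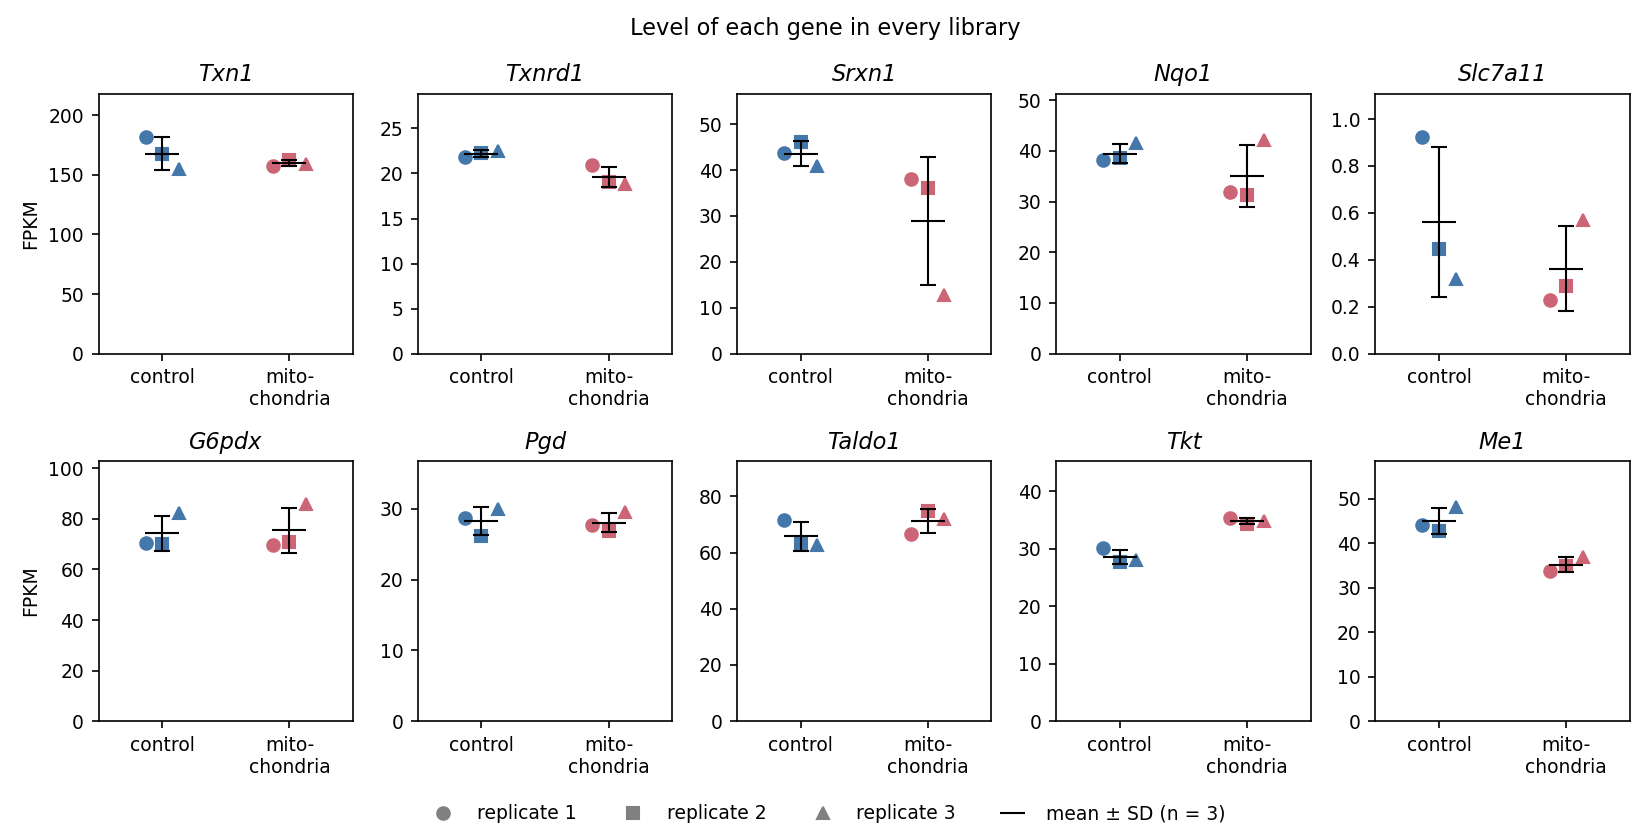
FPKM of each of the 10 genes in every library (vertical axes from 0, each with its own scale), controls in blue and mitochondria libraries in red, with marker shapes for replicate numbers and bars for the mean ± SD of 3 libraries. Tkt, Me1, Txnrd1 and Srxn1 have groups that do not overlap, and the Srxn1 value of mitochondria replicate 3, 12.8 FPKM, lies far below the other 5.

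Thioredoxin itself was the most abundant transcript of the set. Txn1 (ENSMUSG00000028367, chromosome 4, 57943373 to 57956411), the small cytosolic dithiol protein that reduces peroxiredoxins and ribonucleotide reductase, was at 182, 167 and 155 FPKM in control replicates 1 to 3. With mitochondria it was at 158, 162 and 159 FPKM. All 3 mitochondria values lay inside the range of the controls, whose spread was wider (167.8 ± 13.5 FPKM against 159.8 ± 2.37, SD, n = 3). The log2 difference was −0.07, with a 95% interval in limma from −0.23 to 0.09 (adjusted p = 0.715).

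Txnrd1 (ENSMUSG00000020250, chromosome 10, 82833951 to 82897712) encodes cytosolic thioredoxin reductase, the selenoenzyme that carries electrons from NADPH to thioredoxin. It was at 21.8, 22.3 and 22.5 FPKM in controls and at 20.9, 19.1 and 18.8 FPKM with mitochondria. Every mitochondria library was below every control, and the means differed by −11.8% (22.2 ± 0.347 and 19.6 ± 1.14 FPKM, SD, n = 3). The log2 difference of −0.17 (SE 0.06, 95% interval −0.31 to −0.04) had an unadjusted p of 0.0182 and an adjusted p of 0.240 in limma. Substrate and reductase thus stood at different levels in these cells, Txn1 at 164 and Txnrd1 at 20.9 FPKM on average over the 6 libraries, with no overlap.

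Srxn1 (ENSMUSG00000032802, chromosome 2, 152105516 to 152111376) encodes sulfiredoxin, which uses ATP and a thiol donor to repair hyperoxidised peroxiredoxins. It was at 43.8, 46.2 and 40.9 FPKM in controls and at 38.0, 36.0 and 12.8 FPKM with mitochondria. Mitochondria replicate 3 set the size of the difference: the other 2 libraries of its group were 2.82 and 2.97 times as high. With all 6 libraries the log2 difference was −0.72 (SE 0.38, 95% interval −1.62 to 0.19, limma adjusted p = 0.460). Without mitochondria replicate 3 it was −0.23 (limma adjusted p = 0.306). The groups still did not overlap, as in 32.5% of all genes tested without that library. A library at least 2-fold from both others of its group was found in 3.06% of the genes tested, and a low value of that kind in mitochondria replicate 3 in 56 genes (0.443%). The part of that library in the result beyond these values was not tested.

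Nqo1 (ENSMUSG00000003849, chromosome 8, 107388225 to 107403206), the quinone reductase often read as a sign of NRF2 activity, did not follow Srxn1 across libraries. It was at 38.2, 38.7 and 41.6 FPKM in controls and at 31.8, 31.3 and 42.2 FPKM with mitochondria. Mitochondria replicate 3, lowest for Srxn1, was here the highest of all 6 libraries, and the groups overlapped. The means were 39.5 ± 1.85 and 35.1 ± 6.11 FPKM (SD, n = 3). The log2 difference was −0.18 (95% interval −0.45 to 0.10, limma adjusted p = 0.560). Without mitochondria replicate 3 it was −0.31 (limma adjusted p = 0.153). The groups then did not overlap, which was so for 32.5% of all genes tested without that library.

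Slc7a11 (ENSMUSG00000027737, chromosome 3, 49892526 to 50443614), the light chain of the cystine-glutamate exchanger that supplies cysteine for glutathione, was low in both groups. It was at 0.924, 0.447 and 0.317 FPKM in controls and at 0.228, 0.288 and 0.568 FPKM with mitochondria. The groups overlapped, and the gene reached 1 FPKM in none of the libraries. Without a filter on low values the log2 difference was −0.19 (limma adjusted p = 0.743). Its heavy-chain partner Slc3a2, which also serves other transporters, was at 40.4, 35.3 and 37.5 FPKM in controls and at 32.6, 31.4 and 32.6 FPKM with mitochondria. These groups did not overlap, and the log2 difference was −0.22 (limma adjusted p = 0.174).

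**Figure D2:**
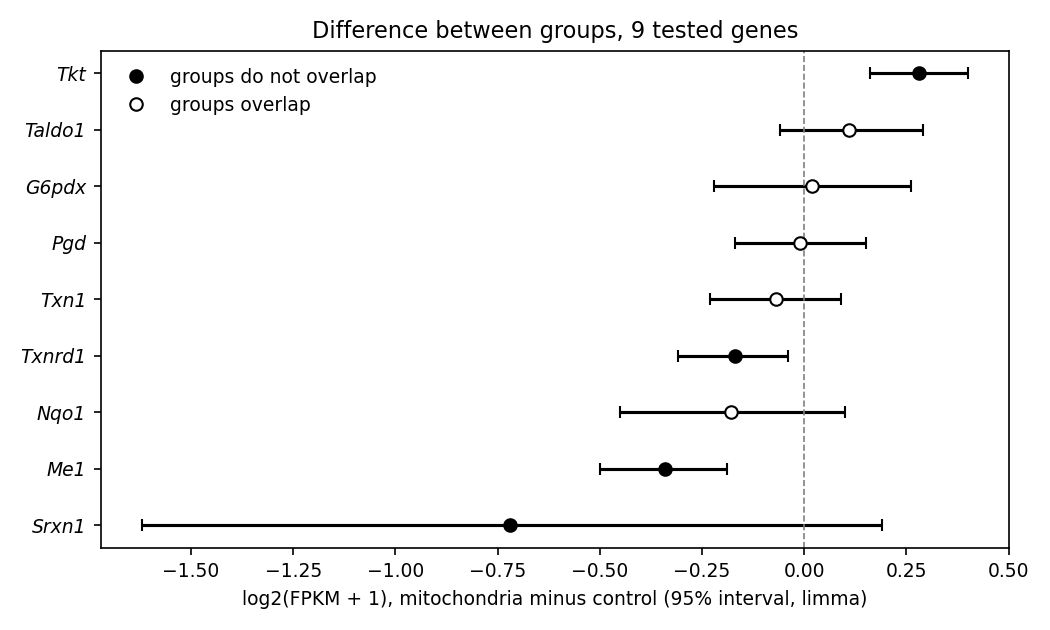
Difference on the log2(FPKM + 1) scale, mitochondria minus control, for the 9 tested genes, with points for the limma estimate and bars for its 95% interval. Filled points mark genes whose groups do not overlap. The intervals of Tkt, Txnrd1 and Me1 leave out 0 before adjustment, and that of Srxn1 is the widest.

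In the oxidative branch of the pentose phosphate pathway, which makes NADPH, the groups had like means. G6pdx (ENSMUSG00000031400, chromosome X, 74409483 to 74429194), glucose-6-phosphate dehydrogenase and the entry point of the pathway, was at 70.4, 69.9 and 82.4 FPKM in controls. With mitochondria it was at 69.7, 70.8 and 85.8 FPKM. Replicate 3 was highest in each group by more than the groups differed. The log2 difference of 0.02 had a 95% interval from −0.22 to 0.26 (limma adjusted p = 0.958). Pgd (ENSMUSG00000028961, chromosome 4, 149149991 to 149166771), the next NADPH-producing dehydrogenase of the pathway, was at 28.6, 26.1 and 30.0 FPKM in controls and at 27.8, 26.8 and 29.5 FPKM with mitochondria. All 3 mitochondria values lay inside the control range, and the log2 difference was −0.01 (95% interval −0.17 to 0.15, limma adjusted p = 0.969). The sign for Pgd and G6pdx turned under other settings, so no direction is given for either.

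The non-oxidative branch interconverts sugar phosphates and links the pathway to glycolysis. Tkt (ENSMUSG00000021957, chromosome 14, 30548359 to 30574720), transketolase, was at 30.0, 27.6 and 28.0 FPKM in controls and at 35.4, 34.2 and 34.8 FPKM with mitochondria. Every mitochondria library was above every control, and the spread within each group was small against the gap (28.5 ± 1.29 and 34.8 ± 0.561 FPKM, SD, n = 3). The log2 difference was 0.28 (SE 0.05, 95% interval 0.16 to 0.40), with an unadjusted p of 0.00110 and an adjusted p of 0.0671 in limma. Tkt passed the threshold under 2 other scalings, TMM (limma adjusted p = 0.0498) and quantile normalization (0.0380), and its adjusted p over all 14 alternatives reached 0.271.

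Taldo1 (ENSMUSG00000025503, chromosome 7, 141392199 to 141402968), transaldolase, the other enzyme of that branch, was at 71.7, 63.0 and 62.8 FPKM in controls. With mitochondria it was at 66.7, 75.0 and 72.1 FPKM. Control replicate 1 lay among the mitochondria values, so the groups overlapped. The log2 difference was 0.11 (95% interval −0.06 to 0.29, limma adjusted p = 0.559). A difference between Tkt and the other pentose phosphate genes in their response was not tested.

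Me1 (ENSMUSG00000032418, chromosome 9, 86581371 to 86695953), cytosolic malic enzyme, makes NADPH while converting malate to pyruvate. It was at 44.0, 42.7 and 48.2 FPKM in controls and at 33.7, 34.9 and 37.0 FPKM with mitochondria. The highest mitochondria value was below the lowest control, and the means differed by −21.8% (45.0 ± 2.90 and 35.2 ± 1.66 FPKM, SD, n = 3). The log2 difference was −0.34 (SE 0.06, 95% interval −0.50 to −0.19), with an unadjusted p of 0.00117 and an adjusted p of 0.0702 in limma, between 0.0621 and 0.260 over the alternatives.

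Copies elsewhere in the genome bear on some of these values, and the sources used here do not say how reads with several matches were assigned. Of the 31-base words of Me1 transcripts, 36.9% also occurred in other genes, chiefly the processed pseudogenes Gm7049 (28.6%) and Gm7329 (4.07%) and the lincRNA Gm48795 (22.0%). Gm7329 was listed at 14.1 to 17.4 FPKM in controls and at 11.04 to 13.3 FPKM with mitochondria, and Gm7049 at 4.19 to 4.73 and 3.60 to 3.98 FPKM. Both copies were thus lower with mitochondria without overlap, as Me1 was. G6pdx shared 12.6% of its words with its retrocopy G6pd2, which did not exceed 0.012 FPKM, and 11.8% with Ikbkg, a gene on the opposite strand whose exons overlap 13.6% of those of G6pdx and whose level was 3.77 to 5.19 FPKM. Taldo1 shared 13.8% with the pseudogene Gm17823, at 0.19 FPKM or less, and Txn1 shared 6.95% with Txn-ps1, at 0.07 FPKM or less. Slc7a11 shared 4.27% of its words with other genes, among them Tuba1a (1.59%), Tuba1b (1.43%) and Tuba1c (1.43%), tubulins at 239 to 627 FPKM against 0.228 to 0.924 FPKM for Slc7a11 itself. The levels of Me1, Taldo1 and Slc7a11 and of the overlapping part of G6pdx are uncertain to this extent.

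Ordered by their mean over the 6 libraries, Txn1 (164 FPKM) stood above G6pdx (74.8) and Taldo1 (68.5), whose ranges overlapped each other. Me1 (40.1), Nqo1 (37.3), Srxn1 (36.3), Tkt (31.7) and Pgd (28.2) followed, each with a range that overlapped the next, then Txnrd1 (20.9) and Slc7a11 (0.462) without overlap. Txn1 was above 98.5% of the genes tested and Txnrd1 above 79.3%.

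**Figure D3:**
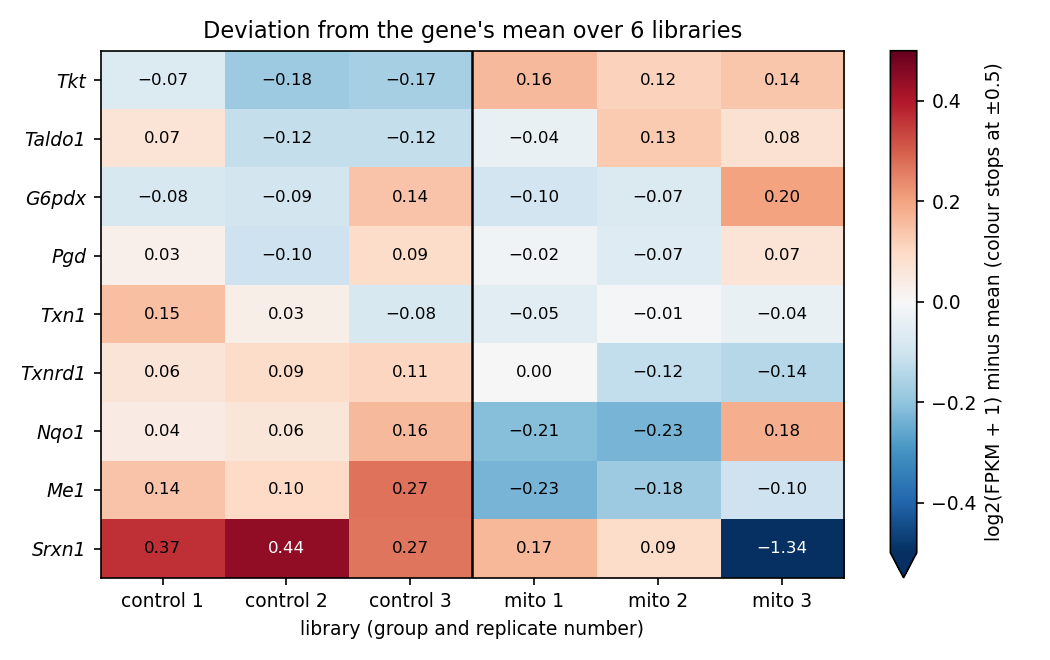
Each cell gives log2(FPKM + 1) of a gene in a library minus the mean of that gene over 6 libraries, with libraries in columns (mito, mitochondria) and the 9 tested genes in rows ordered by their difference. Tkt is positive in all 3 mitochondria libraries and negative in all 3 controls, Me1 is the reverse, and G6pdx, Pgd and Nqo1 are highest in replicate 3 of each group.

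Some members varied more between the libraries of a group than between the groups. The libraries with number 3 held the highest value of both groups for 4 of the 9 tested members, Nqo1, G6pdx, Pgd and Me1, which was so for 18.8% of all genes tested. For Srxn1 these libraries were the lowest in both groups, as for 22.9% of all genes tested. In G6pdx, the value of replicate 3 stood above replicate 1 by 0.22 on the log2 scale in the controls and by 0.30 with mitochondria, and the groups differed by 0.02.

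The genes around the members were covered by 6 lists with 102 genes, of which 87 were tested. Gclc and Gsta4, both lower with mitochondria, were the 2 called in limma, where 0.649% of all genes tested were called lower. Among 21 tested other targets of NRF2 these 2 fell, 0 rose, 8 were positive and 13 negative, and the median log2 change was −0.04. At an unadjusted p under 0.05 in limma, 2 of the 21 were higher and 5 lower, where 13.9% of all genes tested were under it. Groups did not overlap in 8 of the 21, 3 higher and 5 lower, against 21% of all genes tested. Gclc, the catalytic subunit of the enzyme that starts glutathione synthesis, fell from 25.5 ± 0.763 to 20.6 ± 0.256 FPKM (SD, n = 3, limma adjusted p = 0.0461), and Gsta4, a glutathione transferase for lipid aldehydes, from 35.5 ± 3.31 to 24.9 ± 0.922 FPKM (limma adjusted p = 0.0420). In the 6 fits that left out a library, Gclc was called in 0 and Gsta4 in 1. Abcc4, an efflux pump for conjugates, was at 1.68 ± 0.115 and 2.51 ± 0.269 FPKM, higher in all 3 mitochondria libraries (limma adjusted p = 0.0999).

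Of the 12 regulators of NRF2, 0 were called in limma and 2 had an unadjusted p under 0.05, where 13.9% of all genes tested did. Nfe2l2, which encodes NRF2, was at 53.8, 50.3 and 48.6 FPKM in controls and at 48.8, 49.3 and 47.8 FPKM with mitochondria, with overlap (log2 difference −0.06, 95% interval −0.19 to 0.06). Keap1 was at 11.6 ± 2.02 and 11.8 ± 0.472 FPKM, and Bach1, a repressor at the same DNA elements, at 24.3 ± 1.53 and 25.2 ± 1.10 FPKM. The 2 with the smallest p were Maff, a small MAF protein, at 9.43 ± 0.848 and 7.53 ± 0.504 FPKM (limma adjusted p = 0.179), and Sqstm1, the autophagy receptor p62 that binds KEAP1, at 160.4 ± 15.2 and 132.8 ± 7.31 FPKM (limma adjusted p = 0.215). Transcript levels do not measure NRF2 protein or its activity.

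**Figure D4:**
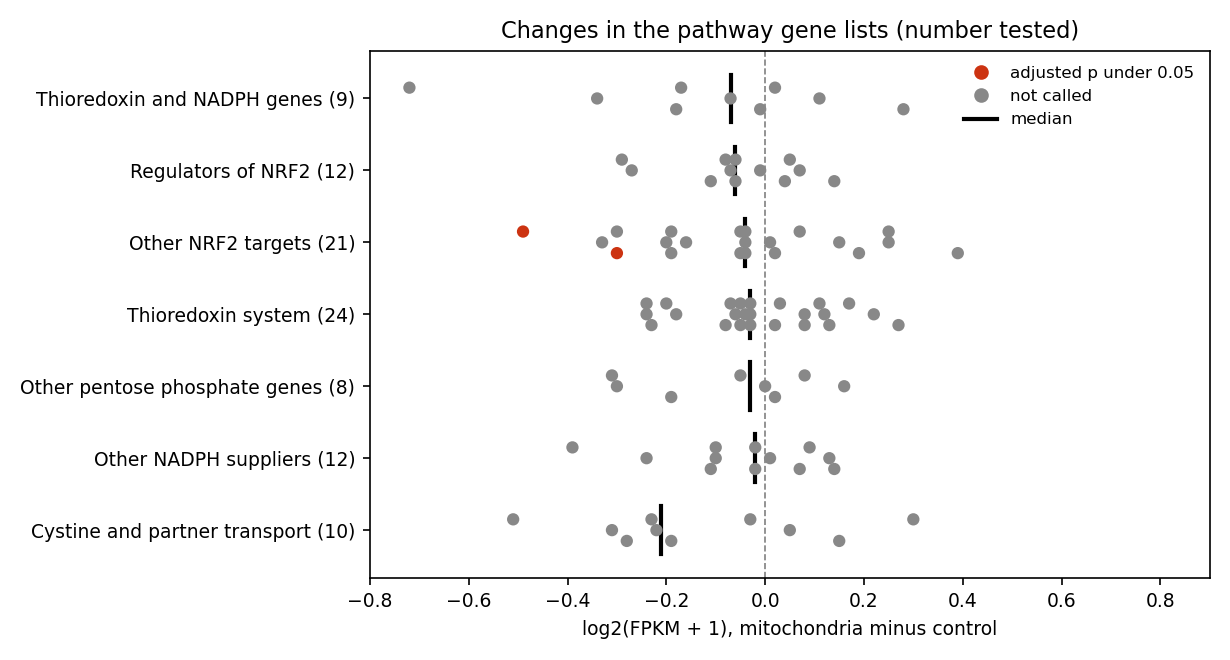
Difference on the log2(FPKM + 1) scale, mitochondria minus control, for each tested gene of the set and of the 6 pathway lists (number tested in brackets), with black bars for the median of a list and red points for the 2 genes called in limma, Gsta4 and Gclc. The medians run from −0.21 for cystine and partner amino acid transport (with Chac1, Ggt1 and Ggt5, not transporters) to −0.02 for other NADPH suppliers. The list of other NADPH suppliers also holds enzymes that are not chiefly sources of NADPH.

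The list of the thioredoxin system beyond the members also holds glutaredoxins and proteins that only resemble thioredoxin. Of its 24 tested genes, 0 were called in limma, and the median log2 change was −0.03. At an unadjusted p under 0.05, 1 was higher and 3 were lower, where 13.9% of all genes tested were under it. Groups did not overlap in 8 of the 24, 5 higher and 3 lower, against 21% of all genes tested. Txnrd2, the mitochondrial counterpart of Txnrd1, was at 1.94, 1.89 and 1.94 FPKM in controls and at 2.53, 2.48 and 2.56 FPKM with mitochondria. Its groups did not overlap, with Txnrd2 higher and Txnrd1 lower with mitochondria (Txnrd2 log2 difference 0.27, limma adjusted p = 0.119). Nxn, which encodes nucleoredoxin, was at 55.0 ± 2.496 and 46.8 ± 3.41 FPKM, and Txndc12, a thioredoxin-like protein of the endoplasmic reticulum, at 37.0 ± 2.26 and 32.5 ± 0.478 FPKM. Their limma adjusted p-values were 0.206 and 0.227.

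Of the 8 other pentose phosphate genes tested, 0 were called in limma. At an unadjusted p under 0.05, 1 was higher and 3 were lower, where 13.9% of all genes tested were under it. Rpia, the ribose-5-phosphate isomerase, was at 4.84 ± 0.424 and 3.72 ± 0.262 FPKM (limma adjusted p = 0.150), Tigar, a fructose bisphosphatase that steers glucose into the pathway, at 15.3 ± 0.746 and 13.2 ± 0.414 FPKM (0.213), and Prps2, which uses ribose phosphate for nucleotides, at 36.6 ± 3.95 and 29.6 ± 3.46 FPKM (0.298). In each of these 3, which had the smallest p of the list, the groups did not overlap, with lower values with mitochondria. Pgls was higher without overlap, at 7.11 ± 0.535 and 8.06 ± 0.250 FPKM (limma adjusted p = 0.354). Groups thus did not overlap in 4 of the 8, 1 higher and 3 lower, against 21% of all genes tested.

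The list of other suppliers of NADPH also holds Nadk and Nadk2, which make NADP, and Me2 and Mthfd2, which use chiefly NAD. Of its 12 tested genes, 0 were called in limma. An unadjusted p under 0.05 was found for 1 of them, where 13.9% of all genes tested were under it. That gene was Mthfd2, a mitochondrial enzyme of one-carbon metabolism. It was at 13.1, 11.7 and 11.3 FPKM in controls and at 8.93, 8.60 and 9.37 FPKM with mitochondria. Its groups did not overlap (log2 difference −0.39, limma adjusted p = 0.0665). The isocitrate dehydrogenases did not overlap between groups either: cytosolic Idh1 was at 87.8 ± 2.04 and 81.7 ± 3.96 FPKM (limma adjusted p = 0.454). Mitochondrial Idh2 was at 32.4 ± 2.62 and 35.6 ± 0.922 FPKM (limma adjusted p = 0.449). Groups did not overlap in 4 of the 12, 1 higher and 3 lower, against 21% of all genes tested. Aldh1l1, given above as an astrocyte marker, is also on this list but was too low to be tested. It was at 0.391 ± 0.0792 FPKM in controls and 1.06 ± 0.0910 FPKM with mitochondria, without overlap.

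The list of cystine and partner amino acid transport also holds Chac1, Ggt1 and Ggt5, which are not transporters. Of its 10 tested genes, 0 were called in limma, while 5 were lower and 1 higher at an unadjusted p under 0.05. The median log2 change was −0.21. Chac1, which degrades glutathione, was at 3.61 ± 0.643 and 2.24 ± 0.321 FPKM (limma adjusted p = 0.140), and Slc1a5, a glutamine carrier, at 4.94 ± 0.471 and 3.78 ± 0.410 FPKM (limma adjusted p = 0.204). The groups did not overlap in 7 of these 10 genes, 5 lower and 2 higher, where 21% of all genes tested did not overlap and 13.9% had an unadjusted p under 0.05.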

How the data were processed

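RNA from 3 control and 3 mitochondria libraries was compared. The table the authors deposited for each library holds 1 value per gene, read here as FPKM from the values themselves because the headers name no unit: library sums were 281433 to 297838, too low for TPM, and in genes with 1 transcript the value times the exonic length piled up at 1 figure in each library, taken as the worth of 1 fragment, which gave the depth. The submitters' processing notes name GRCm38 (mm10) and the tools StringTie 1.3.1c, STAR 2.5.3a and FastQC 0.11.5. Their settings, the annotation release and the use of strand are not given in the sources used here. Symbols and coordinates came from GENCODE M21 on GRCm38, which matched 55154 of 55335 identifiers.

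From these values log2(FPKM + 1) was computed and fitted by group over all 6 libraries (limma 3.58.1, R 4.3.3, empirical Bayes with a trend, robust). Tests were two-sided and covered genes that reached 1 FPKM in 3 or more libraries, with Benjamini-Hochberg adjustment over all of them. The scale understates the change of low genes. The code was tested on simulated data. Alternatives were TMM, a pseudocount of 0.1, a minimum mean of 5 FPKM, no filter, quantile normalization, rescaling to TPM, plain empirical Bayes, a replicate block and omission of each library. The members, the lists and the rule for names were chosen with earlier results of these data known. The rule took all members, called genes of each list or its 3 genes with the smallest p, and Nfe2l2, Keap1, Bach1, Slc3a2, Idh1 and Mthfd2. Not every gene it took is given in the text. Marker genes, Pgls, Gm7049, Gm7329 and the other copies were named after their values were seen. Promoters came from RefSeq's GRCm38.p6 table.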

Additional observations from a re-analysis of the deposited data

How the results depend on the processing

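Over 14 alternatives, the 9 tested members kept their direction and their side of the threshold except as follows. Tkt passed under TMM (log2 change 0.29) and quantile normalization (0.31), so the number of members called was 1 under each and 0 under the rest. Pgd turned sign under TMM (0.0014) and quantile normalization (0.01), and leaving out libraries gave −0.06 to 0.03 for Pgd and −0.07 to 0.10 for G6pdx. Without single libraries Srxn1 ran from −0.98 to −0.23. The number of genes called in the whole table, 141, was 13 with no filter, where more genes are tested, and 14 to 88 without single libraries. Members called stayed at 0 without single libraries, and members whose groups did not overlap numbered 4 or 5 of 9, where 27.1% to 36.7% of all genes tested did not overlap. The 2 called pathway genes became 0 with no filter, plain empirical Bayes and the replicate block, 1 (Gsta4) under TMM, quantile normalization and TPM, and 0 to 1 without single libraries. These last alternatives were chosen after seeing the data. The cause was not tested.

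With the replicate number as a block, 56 genes were called in the whole table and 0 members. Deviations of same-numbered libraries correlated at 0.10, 0.05 and 0.30 for numbers 1 to 3, and libraries correlated best with their own number for number 3 only. Since not every pair was above 0.1, the numbers were not taken to pair the libraries, although those with number 3 did deviate together. The number of fragments behind each value was not analysed here.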
